A study of Mus musculus with 4 samples.

Results

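Integrins and laminins are described here as 37 protein-coding mouse genes: 18 integrin alpha chains, 8 integrin beta chains and 11 laminin chains. They were chosen by gene symbol in the GENCODE M21 annotation of GRCm38 (the build also called mm10), by a rule on names that uses no measured value. Of the 37, 35 are among the 26561 genes of the count table. Itgam and Itgad, alpha chains of leukocyte integrins, are not listed in it, and Itgam shares 3450 exonic bases with Gm49368 on the same strand. The libraries are bulk RNA-seq of MC38, a tumour line derived from a mouse colon adenocarcinoma, labelled as an epithelial cell line of WT (wild-type) genotype. All 4 libraries carry that same genotype, and no allele or agent other than X-rays is named. The nonIR group holds 2 unirradiated libraries, and the IR group holds 2 libraries taken 60 h after 1 X-ray fraction of 30 Gy. The title of the series is about Piezo2 and the radioresistance of tumour cells, and the present comparison is irradiated against unirradiated cells.

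Integrins are membrane receptors made of 1 alpha and 1 beta chain, which bind matrix proteins or proteins of other cells and link them to the actin or keratin cytoskeleton. Laminins are secreted trimers of 1 alpha, 1 beta and 1 gamma chain that form the sheet of the basement membrane on which epithelial cells rest. The alpha chain of an integrin largely sets the ligand, so that the chains are usually sorted into laminin-binding, collagen-binding, RGD-binding (the RGD motif is found in fibronectin and vitronectin) and leukocyte types. In intestinal epithelium, laminin-binding integrins hold the cell to its basement membrane and also carry growth and survival signals. An integrin reaches the cell surface as a complete dimer, so that a chain whose partner is scarce is normally retained.

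Total counts ran from 26059171 to 29881492 per library, and 15298 genes had enough counts to be tested. Genes with any count numbered 19413 and 19531 in nonIR and 22713 and 22663 in IR libraries. Gains from 0 to a few counts were thus not particular to the members. Whether replicates were separate cultures is not stated, and p-values therefore reflect the spread among the libraries as sequenced, possibly technical. For 13772 of the tested genes that spread came wholly from the trend fitted over all genes. No harvest time is given for the nonIR cells, and time in culture cannot be told apart from irradiation. The epithelial label was only partly matched by its markers: Epcam had 0, 0, 0 and 1 counts (nonIR 1, nonIR 2, IR 1, IR 2, the order used throughout) and Krt18 0, 0, 2 and 3, while Cdh1, encoding E-cadherin, stood at 36.3, 34.6, 73.0 and 67.7 CPM (counts scaled to a library of 1000000). The epithelial list of 7 markers summed to 36.5 to 38.5 CPM in nonIR and 70.1 to 75.8 CPM in IR libraries, with 3 of the 7 at 0 in both nonIR libraries. Fibroblast markers, largely Col3a1, summed to 383 to 390 CPM in nonIR and 759 to 761 CPM in IR libraries. The part of these shifts in the values of integrins and laminins was not tested.

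Transcripts of the main laminin- and fibronectin-binding alpha chains took a smaller part of the IR libraries, and those of most beta chains a larger part. Itga3, Itga6 and Itga5 fell 1.42- to 1.67-fold, while Itgb5, Itgb7 and Itgb4 rose 1.52- to 1.85-fold. Among laminins, Lamb2 rose 2.24-fold and Lamb1, its alternative in the trimer, fell 1.11-fold. In bulk libraries, fewer cells of a type and less RNA per cell cannot be told apart. CPM are scaled to each library and do not give amounts per cell. Of the 28 members tested, 17 rose and 7 fell at an adjusted p under 0.05 (edgeR quasi-likelihood test, Benjamini-Hochberg over the 15298 genes), where 30.4% of all tested genes rose and 30.3% fell. At 2-fold or more, 11 of the 28 rose and 0 fell, where 12.4% of all tested genes rose and 3.47% fell to that extent. Most of those 11 were scarce: with a mean of at least 5 CPM over the 4 libraries, 4 of 19 members rose 2-fold or more, where 5.03% of all tested genes at that level did.

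The counts differed with the level of the members. Of the 19 members with a mean of at least 5 CPM, 9 rose, 7 fell and 3 did not pass, where 29.8% of tested genes at that level rose and 41.0% fell. Their median log2 fold change was 0.25, beside -0.07 over all genes at that level. The mean is over both groups, so a gene under 5 CPM in nonIR libraries can reach it through the IR libraries, as Itga7 did. Of the 9 members tested below 5 CPM, 8 rose and Lama3 did not pass, where 31.7% of such genes rose. A gene that scarce can pass the filter through the group in which it is high. The count of 8, and the part these members have in the counts of 17 and 11, are therefore descriptions. A further 7 members stayed below the filter, and in 5 of them both IR libraries stood above both nonIR libraries, as did 24.9% of all genes below the filter.

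By chain class, at 5 CPM or more, 2 of 7 integrin alpha chains rose and 4 fell, 5 of 6 beta chains rose and 1 fell, and 2 of 6 laminin chains rose and 2 fell. The fall of 1 of those laminin chains, Lamc1, was lost without nonIR replicate 2 or without IR replicate 1, which left 1. The matching median log2 fold changes were -0.14, 0.87 and 0.02. Over all 28 tested members they were 0.80 for alpha chains, 1.00 for beta chains and 0.49 for laminin chains, beside 0.01 for all tested genes. These medians take in the scarce members that can pass the filter through the IR group, and are descriptions.

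**Figure D1:**
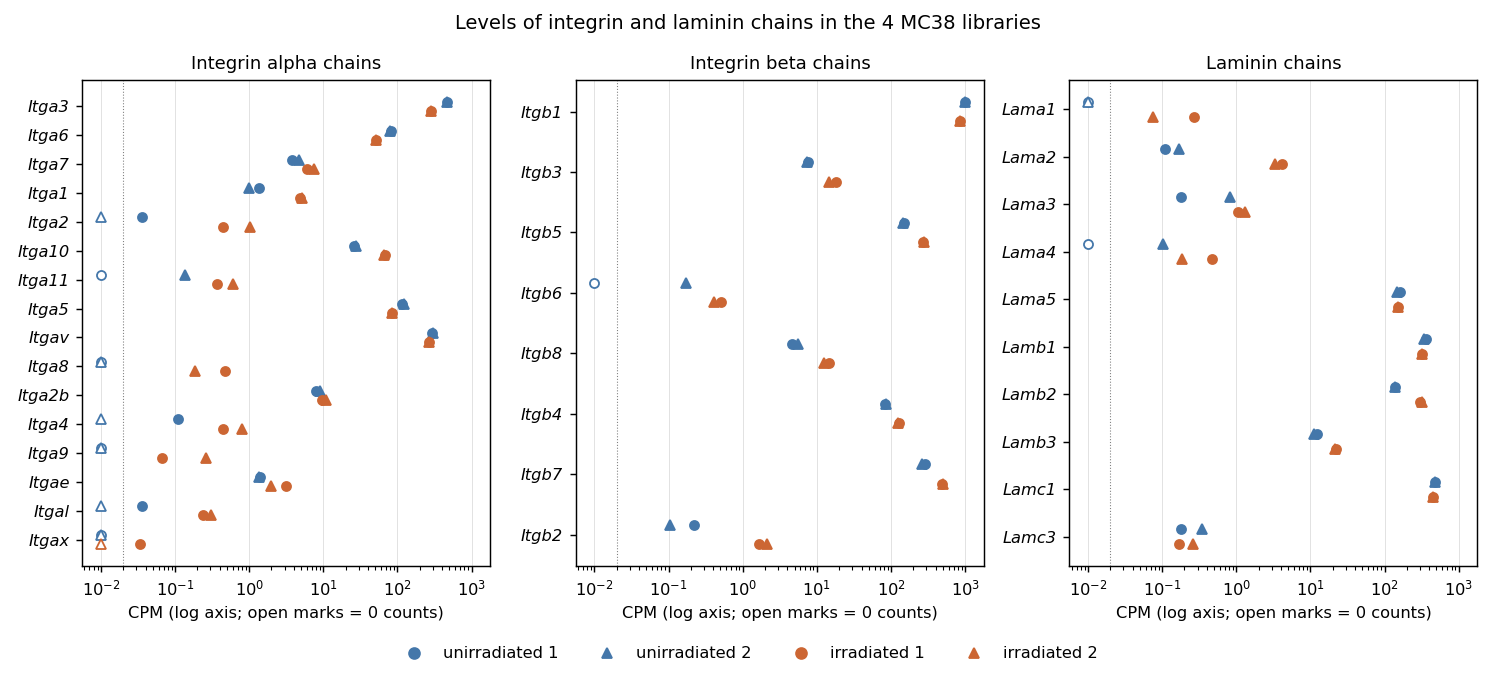
CPM of members in the 4 libraries on a log axis, with alpha chains, beta chains and laminin chains in separate panels. Circles and triangles are replicates 1 and 2, blue is unirradiated and orange irradiated, and open marks at the left edge are libraries with 0 counts. Abundant chains differ little between replicates, whereas chains below 1 CPM spread widely.

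**Figure D2:**
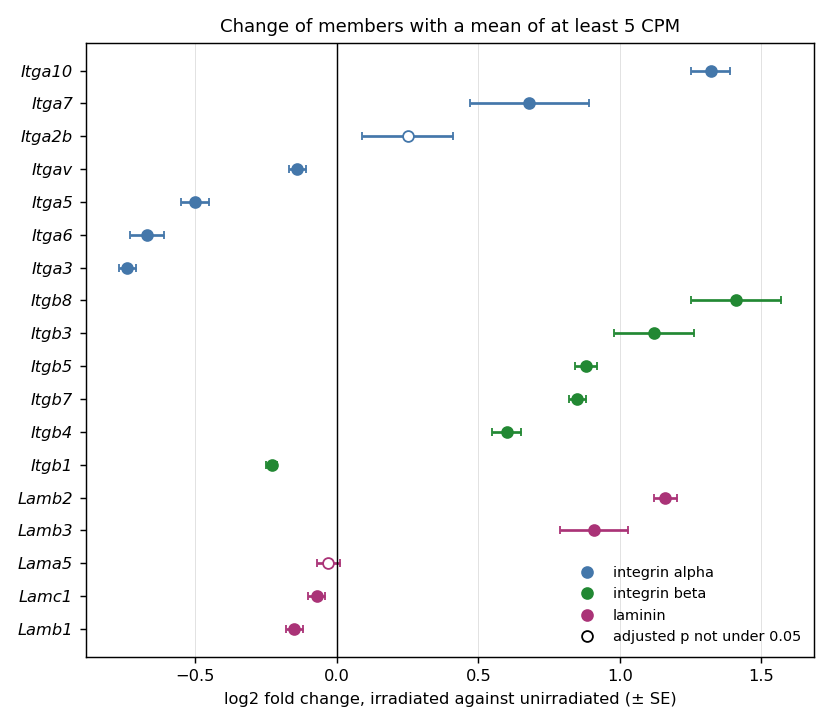
Log2 fold change of irradiated against unirradiated cells, with its standard error, for 18 members with a mean of at least 5 CPM. Filled points passed at an adjusted p under 0.05 and open points did not. The beta chains other than Itgb1 lie to the right of 0, and Itga3, Itga6, Itga5 and Itgav lie to the left.

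The upstream sequence of 5 members that changed by at least 1.4-fold is shown, so that chains that fell can be set beside chains that rose. Other members that changed as much are not shown. A RefSeq window was at hand for 23 members, and its start had to lie within 200 bases of the GENCODE start. A mean of at least 5 CPM was also required, and 1 member was left out because its window holds an exon of another gene. The sequences are from RefSeq (GRCm38.p6). Each is the part of the 250 bases before the RefSeq start that also lies before the GENCODE start, and all are noncoding flank. Itga3 is shown at chr11:95076802-95076964 (minus strand) and Itga5 at chr15:103366792-103367041 (minus strand). Itgb5 is shown at chr16:33829415-33829664 (plus strand), Itgb7 at chr15:102231945-102232185 (minus strand) and Lamb2 at chr9:108479612-108479735 (plus strand). Capitals mark matches to the motifs searched.
Itga3: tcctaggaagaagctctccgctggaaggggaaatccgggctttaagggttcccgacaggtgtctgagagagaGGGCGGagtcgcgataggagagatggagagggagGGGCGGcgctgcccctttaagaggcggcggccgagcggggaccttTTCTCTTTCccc
Itga5: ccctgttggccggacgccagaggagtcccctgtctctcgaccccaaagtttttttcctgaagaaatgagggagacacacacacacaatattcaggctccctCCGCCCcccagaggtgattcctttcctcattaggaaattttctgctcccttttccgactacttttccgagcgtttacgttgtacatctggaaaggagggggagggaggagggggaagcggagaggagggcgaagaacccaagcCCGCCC
Itgb5: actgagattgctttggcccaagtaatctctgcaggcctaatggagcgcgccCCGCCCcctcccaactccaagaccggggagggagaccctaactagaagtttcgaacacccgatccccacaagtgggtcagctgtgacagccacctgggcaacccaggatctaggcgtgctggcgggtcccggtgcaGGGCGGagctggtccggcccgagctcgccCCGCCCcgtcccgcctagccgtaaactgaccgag
Itgb7: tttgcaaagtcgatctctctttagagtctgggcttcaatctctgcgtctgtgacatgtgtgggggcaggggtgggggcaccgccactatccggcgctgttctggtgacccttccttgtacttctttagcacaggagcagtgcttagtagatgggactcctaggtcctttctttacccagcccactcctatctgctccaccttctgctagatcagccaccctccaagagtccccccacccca
Lamb2: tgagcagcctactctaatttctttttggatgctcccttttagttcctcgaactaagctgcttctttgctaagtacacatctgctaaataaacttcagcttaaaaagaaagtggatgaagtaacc
Letters were searched on both strands for AP-1 (TGANTCA), ETS (CCGGAA), TEAD (CATTCC), IRF (GAAANNGAA) and SP1 (GGGCGG), and no motif contains another. In the stretches shown, the chains that fell each held 2 SP1 matches, and Itga3 also held 1 IRF match. Of the chains that rose, Itgb5 held 3 SP1 matches, while Itgb7 and Lamb2 held none of the 5 motifs. SP1 letters occurred in 32.7% of all 32851 promoter windows of 250 bases and in 8 of the 23 members with a RefSeq window. For AP-1 the share was 6.7% of all windows and 1 of 23 members, for ETS 12% and 1, for TEAD 12.6% and 2, and for IRF 7.1% and 3. Members were counted over the full 250 bases, where Itga3 held 3 SP1 matches and 1 ETS match. Over windows cut to the 163 bases of the Itga3 stretch, 29.4% held SP1 letters. Over windows cut to the 124 bases of the Lamb2 stretch, 26.8% did. A match is a run of letters and was not tested as a binding site. GC content was 62.6% in the Itga3 stretch, 55.6% in Itga5, 65.2% in Itgb5, 55.6% in Itgb7 and 37.9% in Lamb2. The median over all windows of 250 bases was 52.4%.

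Both abundant laminin-binding alpha chains fell. Itga3 (ENSMUSG00000001507, chr11:95044474-95076801) encodes the alpha chain that pairs with Itgb1 and binds the laminins of epithelial basement membranes. It stood at 471 and 473 CPM in nonIR and 282 and 283 CPM in IR libraries. Replicates lay within 2 CPM of each other and the groups far apart (log2 fold change -0.74, SE 0.03, edgeR adjusted p = 3.34e-115). Itga6 (chr2:71745616-71858416), whose chain pairs with Itgb1 or with Itgb4, the receptor of hemidesmosomes, read 82.1 and 80.4 CPM in nonIR and 51.3 and 50.7 CPM in IR libraries. Both IR libraries were again lower (log2 fold change -0.67, SE 0.06, edgeR adjusted p = 1.07e-28). Itga7, best known as the laminin receptor of skeletal muscle, was scarce and went the other way, from 3.75 and 4.66 CPM to 6.01 and 7.46 CPM. The estimated change was 0.68 on the log2 scale (SE 0.21, edgeR adjusted p = 0.00255), and it was 0.51 and no longer passed without nonIR replicate 1 or without IR replicate 2. Of 4 skeletal muscle markers, Myod1 and Ckm are not listed in the count table, and the list summed to 0.240 to 0.364 CPM in nonIR and 1.24 to 1.85 CPM in IR libraries.

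All 4 collagen-binding alpha chains rose, but only Itga10 had a mean above 5 CPM over the 4 libraries. Itga2 and Itga11 were near 0 in nonIR libraries and could pass the filter through the IR group, so the count of 4 is a description. Itga10 (ENSMUSG00000090210, chr3:96645584-96664519), known mostly as a collagen receptor of cartilage, read 26.1 and 27.3 CPM in nonIR and 67.5 and 65.4 CPM in IR libraries. Both IR libraries were more than 2-fold above both nonIR libraries (log2 fold change 1.32, SE 0.07, edgeR adjusted p = 8.52e-72). Itga1, which favours collagen IV of basement membranes, had 37 and 29 counts in nonIR and 144 and 139 counts in IR libraries (log2 fold change 2.10, SE 0.30, edgeR adjusted p = 1.20e-11). Itga2, a receptor for fibrillar collagen in epithelium and platelets, had 1 and 0 counts against 13 and 27, a count ratio of 40.3 (95% interval 6.82 to 1629, from counting error alone). Itga11, a fibroblast collagen receptor, had 0 and 4 counts against 11 and 16. Its call (log2 fold change 2.71, SE 0.98, edgeR adjusted p = 0.0108) was lost without nonIR replicate 1, without either IR replicate, with no count filter and with DESeq2.

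None of the 3 RGD-binding alpha chains that were tested rose. Itga5 (chr15:103344286-103366763), the alpha chain of the classical fibronectin receptor, read 117 and 122 CPM in nonIR and 83.7 and 85.4 CPM in IR libraries. The groups were separate (log2 fold change -0.50, SE 0.05, edgeR adjusted p = 4.07e-22). Fn1, encoding its ligand fibronectin, went the other way, from 170 and 163 CPM to 1297 and 1315 CPM (log2 fold change 2.97, SE 0.03, edgeR adjusted p below 1e-300). Itgav (chr2:83724397-83806916), which pairs with Itgb1, Itgb3, Itgb5, Itgb6 or Itgb8 and binds vitronectin, fibronectin and latent TGF-beta, changed far less. It read 289 and 298 CPM against 264 and 267 CPM (log2 fold change -0.14, SE 0.03, edgeR adjusted p = 7.36e-05). With upper-quartile scaling its change was -0.07 and did not pass. Itga2b, the platelet fibrinogen receptor chain, read 8.04 and 9.04 CPM in nonIR and 9.57 and 10.8 CPM in IR libraries and did not pass (log2 fold change 0.25, SE 0.16, edgeR adjusted p = 0.165). Platelet markers were low: the list of 6 summed to 4.48 to 4.52 CPM in nonIR and 6.15 to 7.38 CPM in IR libraries, with 2 of the 6 at 0 in both nonIR libraries. Itga8, a receptor for nephronectin in the kidney, had 0 counts in both nonIR libraries and 14 and 5 in the IR libraries, at least 6.37-fold higher against a floor of 3 counts over the group. Its exons overlap the antisense gene E030013I19Rik, which had 3 counts over all 4 libraries.

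Alpha chains of leukocyte integrins were at or near 0. Itgae, which with Itgb7 binds E-cadherin, had 38 and 39 counts in nonIR and 94 and 53 in IR libraries (log2 fold change 0.93, SE 0.36, edgeR adjusted p = 0.0176). Its call was lost without nonIR replicate 2, without IR replicate 1 and with DESeq2. Itga4, which binds Vcam1 and fibronectin, had 3 and 0 counts against 13 and 21, a ratio of 11.4 (95% interval 3.59 to 58.0), and did not pass without nonIR replicate 2 or without IR replicate 2. Its exons overlap those of Cerkl on the other strand, which holds 73.0% as many counts, and reads of the 2 genes cannot be told apart without strand. The remaining leukocyte-type chains, and Itga9, which is grouped with Itga4, were scarcer still. Itgal had 1 and 0 counts against 7 and 8 (ratio 15.1, 95% interval 2.32 to 635), Itgax 0 and 0 against 1 and 0, and Itga9 0 and 0 against 2 and 7, at least 3.02-fold higher. Leukocyte markers other than Cd14 were also near 0. Cd3e had 0, 0, 1 and 0 counts and Ptprc, encoding CD45, had 10, 6, 24 and 17. Lyz2, the only marker of the list that was called, rose from 0 and 2 counts to 23 and 20. The list of 7 summed to 4.90 to 6.19 CPM in nonIR and 8.02 to 8.20 CPM in IR libraries, most of it Cd14, and its part in these counts was not tested.

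Of the 8 beta chains, Itgb1 fell and the other 7 rose, where 30.4% of all tested genes rose and 30.3% fell. Itgb2 and Itgb6 were near 0 in nonIR libraries and could pass the filter through the IR group, so the count of 7 is a description. Itgb1 (ENSMUSG00000025809, chr8:128685654-128733200), the common partner of most matrix-binding alpha chains, was the most abundant member. It read 1002 and 1006 CPM in nonIR and 853 and 865 CPM in IR libraries (log2 fold change -0.23, SE 0.02, edgeR adjusted p = 5.88e-19). Itgb5 (chr16:33829665-33949338), whose chain forms a vitronectin receptor with that of Itgav, read 148 and 147 CPM against 270 and 276 CPM. The groups lay far apart against the gap between replicates (log2 fold change 0.88, SE 0.04, edgeR adjusted p = 7.59e-117). Itgb7 (chr15:102215995-102231944), known as a lymphocyte chain that pairs with Itga4 or Itgae, was the second most abundant beta chain by CPM. It read 285 and 262 CPM in nonIR and 487 and 497 CPM in IR libraries (log2 fold change 0.85, SE 0.03, edgeR adjusted p = 5.09e-151). Itgb4 (chr11:115974709-116008412), whose long tail anchors keratin filaments at hemidesmosomes, rose from 82.0 and 84.4 CPM to 130 and 123 CPM (log2 fold change 0.60, SE 0.05, edgeR adjusted p = 7.01e-32).

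The scarcer beta chains moved in the same direction. Itgb3, the other vitronectin receptor chain, read 7.68 and 7.43 CPM in nonIR and 18.1 and 14.6 CPM in IR libraries (log2 fold change 1.12, SE 0.14, edgeR adjusted p = 3.53e-14). Itgb8, which with Itgav activates latent TGF-beta, went from 4.59 and 5.62 CPM to 14.7 and 12.4 CPM (log2 fold change 1.41, SE 0.16, edgeR adjusted p = 6.35e-17). In both genes the IR replicates differed from each other by more than the nonIR replicates did, yet the groups did not overlap. Itgb2, the beta chain of leukocyte integrins, had 6 and 3 counts against 50 and 57 (log2 fold change 3.55, SE 0.62, edgeR adjusted p = 4.10e-08). None of its alpha partners passed the filter or, for Itgam and Itgad, is listed. Itgb6, an epithelial TGF-beta activator, had 0 and 5 counts against 15 and 11, and its call (log2 fold change 2.33, SE 0.95, edgeR adjusted p = 0.0242) was lost without nonIR replicate 1, without either IR replicate, with no count filter and with DESeq2.

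Among laminin alpha chains Lama5 stood almost alone. Lama5 (ENSMUSG00000015647, chr2:180176373-180225859), the broadly expressed alpha chain of adult epithelial basement membranes, read 159 and 149 CPM in nonIR and 153 and 150 CPM in IR libraries. The groups overlapped, and the log2 fold change, -0.03 (SE 0.04, edgeR adjusted p = 0.617), turned to 0.05 with upper-quartile scaling. Lama2, the alpha chain of muscle and nerve basement membranes, rose from 3 and 5 counts to 124 and 88 counts (log2 fold change 4.69, SE 0.49, edgeR adjusted p = 1.92e-20), and still reached only 4.17 and 3.31 CPM. Lama3, the alpha chain of the anchoring laminin under hemidesmosomes, had 5 and 24 counts in nonIR and 32 and 35 in IR libraries and did not pass (log2 fold change 1.23, SE 0.57, edgeR adjusted p = 0.0527). Without nonIR replicate 2 its log2 fold change was 2.68 and it passed, as it did with upper-quartile scaling (1.30) and with a replicate block (1.42). Lama1, the embryonic alpha chain, had 0 and 0 counts against 8 and 2, at least 3.35-fold higher, and Lama4, the alpha chain of vessel walls, 0 and 3 against 14 and 5 (ratio 6.37, 95% interval 1.88 to 33.6).

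The 3 laminin beta chains parted. Lamb1 (chr12:31265234-31329644), the beta chain of most early and epithelial trimers, read 360 and 342 CPM in nonIR and 316 and 316 CPM in IR libraries (log2 fold change -0.15, SE 0.03, edgeR adjusted p = 1.19e-05). Lamb2 (ENSMUSG00000052911, chr9:108479736-108490530), the beta chain of kidney filter and synaptic basement membranes, read 140 and 137 CPM against 302 and 318 CPM. Both IR libraries held more than 2-fold the level of either nonIR library (log2 fold change 1.16, SE 0.04, edgeR adjusted p = 1.02e-204). Lamb3, which joins Lama3 in the anchoring laminin, rose from 12.2 and 11.1 CPM to 22.3 and 21.4 CPM (log2 fold change 0.91, SE 0.12, edgeR adjusted p = 1.59e-13).

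Of the gamma chains, Lamc1 changed little. Lamc1 (chr1:153218922-153332786), the gamma chain of nearly all laminins, read 473 and 479 CPM in nonIR and 449 and 456 CPM in IR libraries. Its log2 fold change, -0.07 (SE 0.03, edgeR adjusted p = 0.0252), did not pass with upper-quartile scaling (-0.00), with a replicate block, without nonIR replicate 2 or without IR replicate 1. Lamc3 was near 0, with 5, 10, 5 and 7 counts.

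Levels of different genes were compared only per length, as CPM per kilobase of exon union, with each chain given as a share of the summed level of its class. These shares are descriptions and carry no test. Itga3 made up 54.8% ± 0.475 (SD, n = 2) of the alpha-chain level in nonIR and 43.5% ± 0.0583 (SD, n = 2) in IR libraries. Itga10 went from 3.41% to 11.3% and Itgav from 18.1% to 21.7%, while Itga5 went from 16.1% to 15.1% and Itga6 from 5.97% to 4.97%. The share of Itga6 was 9.72% and 8.10% with the longest transcript as length. Among beta chains, Itgb1 went from 61.5% to 43.2%, Itgb7 from 24.7% to 36.4%, Itgb5 from 10.4% to 15.7% and Itgb4 from 2.97% to 3.70%. The order Itgb1, Itgb7, Itgb5, Itgb4 held in all 4 libraries. The summed alpha-chain level per kilobase was 150 and 152 in nonIR and 113 and 114 in IR libraries, whereas the beta-chain sum went from 403 and 396 to 484 and 491.

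Laminin shares were taken within alpha and within beta chains. Lama5 held 99.6% of the alpha-chain level in nonIR and 97.2% in IR libraries. Lamb1 went from 59.1% to 37.0%, Lamb2 from 38.0% to 59.2% and Lamb3 from 2.93% to 3.84%. The order of Lamb1 and Lamb2 thus reversed between the groups when length was the exon union. With the longest transcript as length the shares were 69.2% and 47.8% for Lamb1 and 28.1% and 48.2% for Lamb2, which leaves the pair about level after irradiation.

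**Figure D3:**
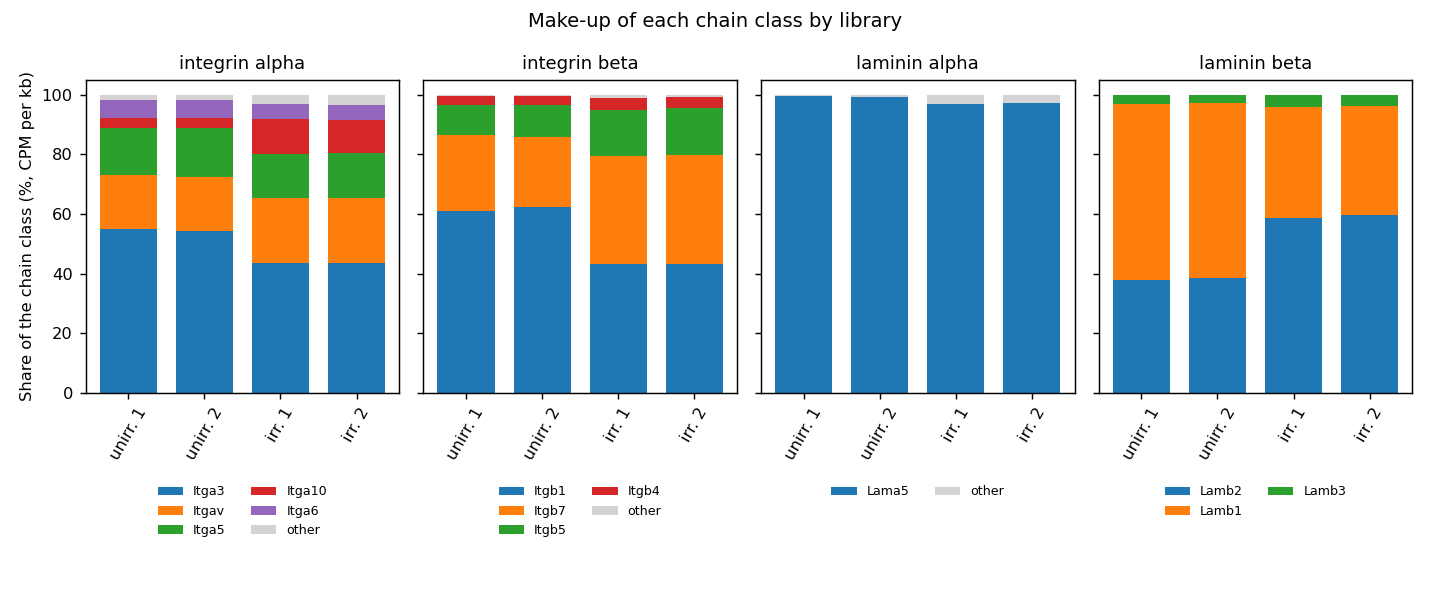
Share of each chain in the summed level (CPM per kilobase of exon union) of its class, by library, for integrin alpha and beta chains and laminin alpha and beta chains. Bars stack to 100% and the grey part pools the remaining chains. Itgb7 and Itgb5 take a larger part of the beta chains in the irradiated libraries, and Lamb2 takes a larger part than Lamb1.

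Receptor chains were then set against their partners as ratios of levels per kilobase, by library and without a test. Itga3 to Itgb1 was 0.336 and 0.336 in nonIR and 0.236 and 0.234 in IR libraries. Itga6 to Itgb4, the hemidesmosome pair, was 0.778 and 0.740 against 0.305 and 0.321, since the alpha chain fell while the beta chain rose. With the longest transcript as length the same ratio was 1.44 and 1.37 against 0.566 and 0.596, so which chain of the pair is the higher in nonIR cells depends on the length used. Itgb5 to Itgav was 1.55 and 1.5 against 3.08 and 3.13. The 4 beta partners of Itgav other than Itgb1 together stood at 1.61 and 1.56 times Itgav in nonIR and 3.27 and 3.27 times in IR libraries. In each of these pairs the IR and nonIR libraries did not overlap, also with the longest transcript as length.

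Itgb7 had hardly any partner. Itgae and Itga4, the alpha chains it is known to pair with, together reached 0.00301 and 0.00309 of its level in nonIR and 0.00410 and 0.00274 in IR libraries. The groups overlapped in this ratio, and Itgae differed between the IR replicates by more than between the nonIR replicates.

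Levels of laminin receptors were also set against levels of their ligand. Laminin-binding alpha chains (Itga3, Itga6 and Itga7) summed to 92.0 and 92.3 CPM per kilobase in nonIR and 55.8 and 56.1 in IR libraries. Lamc1, the gamma chain taken here as the measure of laminin, stood at 57.1 and 58.0 against 54.3 and 55.1 on the same scale. The ratio of receptor alpha chains to Lamc1 was therefore 1.61 and 1.59 in nonIR and 1.03 and 1.02 in IR libraries. The sum of laminin beta chains to Lamc1 went from 1.07 and 1.01 to 1.56 and 1.59. With the longest transcript as length this sum went from 1.45 and 1.36 to 1.91 and 1.93. Per kilobase of exon union, Lama5 to Lamc1 stayed between 0.226 and 0.248 with overlapping groups.

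Genes that work with integrins and laminins were counted in 6 lists, which were chosen with earlier results of these data known. Their counts are descriptions, to be read against 30.4% of all tested genes that rose and 30.3% that fell. At a mean of 5 CPM or more these shares were 29.8% and 41.0%. Of 43 tested activators, adaptors and kinases, 17 rose, 9 fell and 17 did not pass, with a median log2 fold change of 0.06, and at 5 CPM or more 16 of 40 rose and 9 fell. Flna, the actin cross-linker filamin A that binds beta-chain tails and the most abundant of them, fell from 3058 and 3041 CPM to 2153 and 2159 CPM (log2 fold change -0.50, SE 0.02, edgeR adjusted p = 5.33e-144). Parvb, a parvin that links integrins to actin, went from 126 and 126 CPM to 65.0 and 58.5 CPM (log2 fold change -1.03, edgeR adjusted p = 1.41e-81). Tgfb1i1, the paxillin relative Hic-5, fell by 0.66 on the log2 scale (edgeR adjusted p = 4.25e-04). Tns4, a tensin that binds beta-chain tails, rose from 2.80 and 3.56 CPM to 14.1 and 15.8 CPM (log2 fold change 2.23, edgeR adjusted p = 1.71e-35). Nedd9, a focal adhesion scaffold, went from 29.4 and 29.5 CPM to 67.0 and 63.2 CPM (log2 fold change 1.14, edgeR adjusted p = 3.17e-56).

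Of 12 membrane partners, 5 rose, 5 fell and 2 did not pass (median log2 fold change 0.03), and at 5 CPM or more 4 of 11 rose and 5 fell, near the 29.8% and 41.0% of all genes at that level. Bsg, encoding basigin and the most abundant of them, read 398 and 397 CPM in nonIR and 569 and 576 CPM in IR libraries, and Cd47, a thrombospondin receptor that associates with Itgb3, 182 and 181 against 298 and 294 CPM. Their log2 fold changes were 0.53 and 0.71 (edgeR adjusted p = 9.98e-69 and 9.91e-82). Slc3a2, the CD98 heavy chain that binds beta-chain tails, went from 190 and 188 CPM to 113 and 115 CPM, and Plaur, the urokinase receptor, from 64.3 and 62.9 CPM to 24.8 and 24.5 CPM. Both groups were separate, with log2 fold changes of -0.73 and -1.37 (edgeR adjusted p = 3.06e-62 and 1.52e-72).

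In the hemidesmosome list, 2 of 5 tested genes rose and 3 fell (median log2 fold change -0.52), where 29.8% of genes at their level, 5 CPM or more, rose and 41.0% fell. The list is too short to set apart from that background. Krt14, a basal keratin, fell from 525 and 508 CPM to 177 and 190 CPM (log2 fold change -1.49, edgeR adjusted p below 1e-300), and Plec, the plectin that joins Itgb4 to keratin, from 2454 and 2295 CPM to 1450 and 1531 CPM (log2 fold change -0.67, edgeR adjusted p = 2.00e-191). Col17a1, a transmembrane collagen, rose from 6.0 and 6.58 CPM to 11.4 and 11.6 CPM (log2 fold change 0.86, edgeR adjusted p = 5.44e-07). Dst, encoding dystonin, passed at a log2 fold change of only 0.08 (edgeR adjusted p = 0.00769), and that call was lost without nonIR replicate 2, without IR replicate 2 and with no count filter. Itgb4 and Col17a1 thus rose while Itga6, Plec, Krt14 and Cd151 fell. Krt5, also in the list, had 0, 0, 0 and 4 counts and was not tested.

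Of 11 tested laminin receptors other than integrins and the enzymes that glycosylate dystroglycan, 3 rose, 5 fell and 3 did not pass (median log2 fold change -0.11), all at 5 CPM or more, where 29.8% and 41.0% of genes rose and fell. Dag1, dystroglycan itself and the most abundant of them, read 347, 346, 362 and 348 CPM and did not pass (log2 fold change 0.04, edgeR adjusted p = 0.341), though it passed at 0.11 with upper-quartile scaling. The syndecans Sdc2 and Sdc4 rose, from 93.1 and 97.5 CPM to 182 and 184 CPM and from 85.7 and 93.7 CPM to 109 and 115 CPM (edgeR adjusted p = 2.52e-94 and 1.03e-09). Pomt1 and Pomt2, which start the laminin-binding sugar of dystroglycan, had log2 fold changes of -0.83 and -0.73 (edgeR adjusted p = 3.85e-21 and 2.17e-17). The exons of Pomt2 overlap those of Gstz1, on the other strand and with about as many counts, by 465 bases, so its value is uncertain. For Pomt1 the overlap, with Uck1, is 4 bases.

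Basement membrane partners of laminin rose in 10 of 15 tested genes and fell in 2, with a median log2 fold change of 1.10, where 30.4% and 30.3% of all tested genes rose and fell. At 5 CPM or more it was 5 and 2 of 8, with a median of 0.21, where 29.8% and 41.0% did. The 5 that rose below 5 CPM could pass the filter through the IR group. The count of 10 and the median of 1.10 are therefore descriptions. Hspg2, the heparan sulfate proteoglycan perlecan and the most abundant of them, went from 1255 and 1202 CPM to 1472 and 1550 CPM (log2 fold change 0.30, edgeR adjusted p = 5.51e-39). Among partners at 5 CPM or more the largest increases were in Col4a5, a collagen IV chain, with 28.5 and 27.0 CPM against 85.5 and 79.1 CPM, and Col18a1, with 54.9 and 53.7 CPM against 114 and 118 CPM (log2 fold changes 1.57 and 1.10, edgeR adjusted p = 7.93e-118 and 6.00e-87). Ntn4, a netrin that binds laminin gamma chains and disrupts their network, fell from 19.5 and 17.0 CPM to 7.69 and 7.72 CPM, and Tinagl1, a matrix protein, from 333 and 332 CPM to 245 and 249 CPM (log2 fold changes -1.24 and -0.43, edgeR adjusted p = 3.18e-18 and 7.80e-35).

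Integrin ligands other than laminins rose in 21 of 25 tested genes and fell in 2, with a median log2 fold change of 0.76, where 30.4% and 30.3% of all tested genes rose and fell. At 5 CPM or more 19 of 21 rose and 1 fell, where 29.8% and 41.0% did. Icam1, Thbs1 and Npnt are among the 19 and reached a mean of 5 CPM only through the IR libraries. Their part in that count is a description, as is that of Postn in the count of 21 and the median of 0.76. Postn had 2, 2, 47 and 52 counts and could pass the filter through the IR group. Icam1, the ligand of Itgb2 integrins, rose from 0.910 and 0.617 CPM to 9.04 and 9.68 CPM, and Thbs1, a thrombospondin, from 1.53 and 1.06 CPM to 12.5 and 14.0 CPM (log2 fold changes 3.61 and 3.35, edgeR adjusted p = 1.49e-40 and 1.49e-51). Col6a1, the most abundant ligand gene, went from 1335 and 1297 CPM to 1901 and 1910 CPM (log2 fold change 0.53, edgeR adjusted p = 7.28e-131). Ccn1, a matricellular ligand of Itgav and Itga6 integrins, fell from 147 and 145 CPM to 81.7 and 78.9 CPM (log2 fold change -0.86, edgeR adjusted p = 8.52e-67). The other call of a fall, in Ccn2, had a log2 fold change of -0.64 and was lost when any 1 library was left out. Cdh1, the ligand of the Itgae and Itgb7 pair, rose by 0.99 on the log2 scale beside Itgb7. The fibroblast marker list, which shares Col1a1 and Col3a1 with these ligands, moved with them (383 to 390 CPM in nonIR, 759 to 761 CPM in IR libraries), and its part in the result was not tested.

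**Figure D4:**
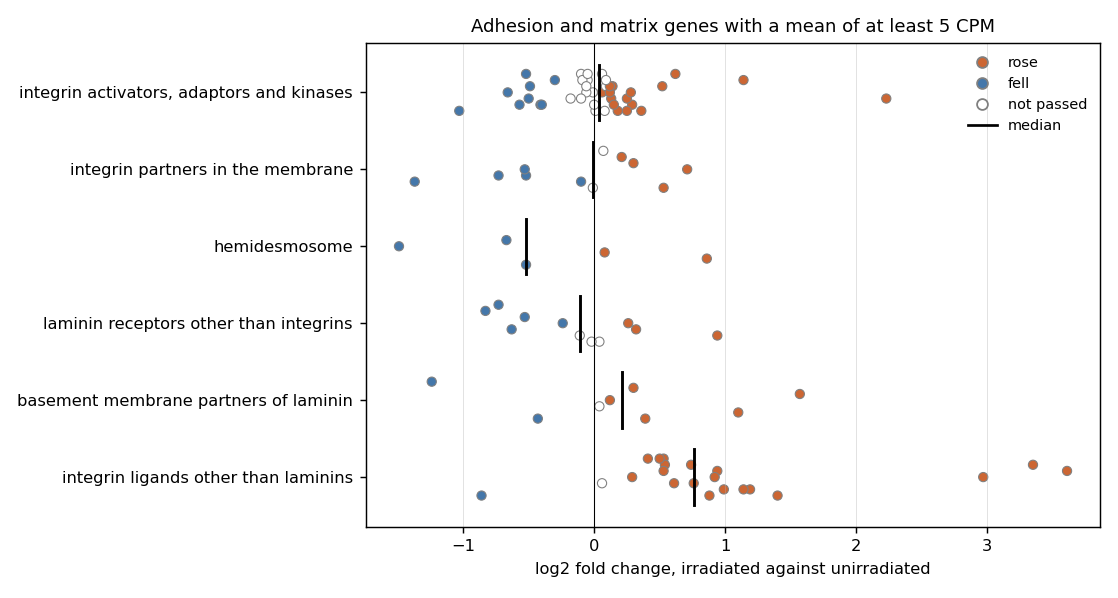
Log2 fold change of each gene with a mean of at least 5 CPM in the 6 lists. Orange points rose, blue points fell and open points did not pass at an adjusted p under 0.05, with a bar at each list's median. The ligands other than laminins lie mostly to the right of 0, and the other lists spread to both sides.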

How the data were processed

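RNA from MC38 cells, 2 nonIR and 2 IR libraries, was measured by bulk RNA-seq. The values deposited by the authors are raw counts per Ensembl gene, 1 column per library and not pooled. The mm10 build and the tools HTSeq, HISAT2, HISAT and DESeq2 are named in the submitters' processing notes, without versions or roles. Neither strand setting nor handling of multiply aligned reads is stated, so reads of overlapping genes and close relatives cannot be told apart. Groups and replicate numbers come from the sample titles. For nonIR replicate 2 the description gives the number of the other library, and the title, which matches the column, was followed. Same-numbered libraries did not deviate together (r = -0.011 over 15298 genes, 2 pairs), so no pairing was used.

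Identifiers were matched to GENCODE M21, which lacks 159 of them. Counts were tested by the quasi-likelihood test of edgeR 4.0.16 (R 4.3.3), with TMM scaling, low counts filtered by filterByExpr on the groups, and glmQLFit run with robust = TRUE, with Benjamini-Hochberg adjustment over 15298 genes and a threshold of 0.05. The filter left out 11263 genes. CPM are counts per 1000000 of each library's TMM-adjusted total. An exact permutation test of 2 against 2 libraries cannot go below p = 0.333 and was not used for single genes. Folds against 0 counts use a floor of 3 counts over the group, and 95% intervals of count ratios are exact (Clopper-Pearson); both cover counting error only. The fit was checked on simulated counts.

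The members and lists were chosen with earlier results of these data known. Members are named, except 1 that is not reported here; of each other list, up to 2 genes that rose and 2 that fell most with a mean of at least 5 CPM and separate groups, and the most abundant. Genes named beyond that were chosen after their values were seen. Ccn1 stands for the older symbol Cyr61. Alternatives were other scaling factors, no count filter, DESeq2 1.42.0, a replicate block, leaving out each library and another gene length.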

Additional observations from a re-analysis of the deposited data

How the results depend on the processing

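Of the members at 5 CPM or more that passed, all but Itga7, Itgav and Lamc1 kept their direction and their call under every alternative run. Leaving out 1 library at a time gave 3 to 6 integrin alpha chains that rose (7 with all libraries; 3 without IR replicate 2), 6 to 7 beta chains that rose, 3 to 5 laminin chains that rose and 1 to 2 that fell, 1 to 2 hemidesmosome genes that rose and 1 ligand gene that fell. With upper-quartile scaling, which moved the median of all tested genes from 0.012 to 0.084, 5 laminin chains rose and 1 fell, 1 ligand gene fell, and Lama5 had a log2 fold change of 0.05. Leaving out 1 library, Lama5 ranged from -0.08 to 0.00, the latter without nonIR replicate 1. With the replicate block 1 laminin chain fell, and Lama3 passed. With no count filter 1 hemidesmosome gene rose and 1 ligand gene fell, and with DESeq2 1 ligand gene fell; the causes were not tested. With the longest transcript as length, shares in nonIR and IR libraries were 50% and 39.8% for Itga3, 21.4% and 25.8% for Itgav, 10.6% and 16.1% for Itgb5, 69.2% and 47.8% for Lamb1 and 28.1% and 48.2% for Lamb2. In IR libraries they were 43.5% for Itgb1 and 35.5% for Itgb7. A left-out library leaves 1 sample in its group, which is assumed to vary like the other group. Below about 1 CPM, counts are too few to place a member's size of change.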
